A study of Mus musculus with 3 samples.

Results

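Peaks of FLAG-tagged Tex10 were examined around 4 immediate early genes, Ier2, Junb, Fos and Egr1, in mouse embryonic stem (ES) cells. The members are the peaks of the deposited list that overlap 1 window per gene by at least 1 bp. On mm9 the windows are chr8:87135000-87235000 for Ier2, chr8:87450000-87550000 for Junb, chr12:86765000-86870000 for Fos and chr18:34970000-35075000 for Egr1. The members were thus selected on the measured positions of the peaks in this list. The windows hold 13 of the 5189 peaks of the list. All 13 lie on chromosome 8, with 6 in the Ier2 window and 7 in the Junb window. The Fos and Egr1 windows hold 0 peaks, so the values below describe peaks around Ier2 and Junb, and the lack of listed peaks around Fos and Egr1.

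The cells are of the J1 line of 129SV mice and carry an extra, ectopic 3xFlag-Tex10 transgene, brought in on piggybac transposon vectors. They were grown with 15% serum and leukaemia inhibitory factor, and the labels name no treatment. All 3 libraries, 1 each of FLAG immunoprecipitation, normal mouse IgG immunoprecipitation and input DNA, come from these T10F10 cells, so none is from cells without the transgene. Only the peak list of the FLAG library was analysed here, and the identity of the cells cannot be checked against marker expression in a peak list.

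Immediate early genes are switched on within minutes of a signal such as serum or a growth factor, without the need for new protein. Serum response factor, with its ternary complex partners, binds the CArG box of many of them, and CREB-family proteins bind the cAMP response element. Fos and Junb encode leucine zipper proteins that pair to form the AP-1 transcription factor. Egr1 encodes a zinc finger transcription factor, and Ier2 encodes a small nuclear protein. Tex10 is known as a part of a nuclear complex that acts in ribosome production, and the title of the series ties it to super-enhancers, enhancers that lie close together in large groups near genes of cell identity.

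The windows and genes were chosen with the peaks of this list known, so counts and scores are given as descriptions, with no test. The list has 1 library behind it and no replicate, its depth is unknown, and the authors' score for each peak is used only to rank peaks within the list. The score is a single number with no stated scale, and runs from 1.31 to 432 with a median of 5.22.

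Promoter sequences from RefSeq (GRCm38.p6) are shown for Junb, whose window holds peaks, and Fos, whose window holds none. The table matched 2 of the 4 genes, Junb and Fos. Each run spans 250 bases before the annotated start of transcription and 50 bases from it, read in the direction of the gene, at chr8:84978699-84978998 on the minus strand for Junb and chr12:85473640-85473939 on the plus strand for Fos. These positions are of another build than the peaks, so no peak can be placed on the sequences. Capitals mark the letters TGACG, which are part of a cAMP response element, CCAAT and TATAAA.
Junb: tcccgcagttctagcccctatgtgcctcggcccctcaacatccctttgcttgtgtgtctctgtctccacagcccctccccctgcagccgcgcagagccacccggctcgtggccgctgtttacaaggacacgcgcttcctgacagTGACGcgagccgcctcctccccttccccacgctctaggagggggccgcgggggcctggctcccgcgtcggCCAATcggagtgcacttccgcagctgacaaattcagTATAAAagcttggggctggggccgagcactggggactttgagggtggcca
Fos: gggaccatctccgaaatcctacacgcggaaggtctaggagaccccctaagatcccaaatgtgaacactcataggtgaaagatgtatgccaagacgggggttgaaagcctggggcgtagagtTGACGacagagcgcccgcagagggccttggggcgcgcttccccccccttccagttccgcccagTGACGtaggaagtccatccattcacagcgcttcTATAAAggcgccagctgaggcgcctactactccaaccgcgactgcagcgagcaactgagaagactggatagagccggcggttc

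Both promoters were searched on both strands. TGACG begins 106 bases before the start in Junb, and 129 and 66 bases before it in Fos. TATAAA begins 33 bases before the start in Fos, and at the first transcribed base in the annotated Junb transcript. CCAAT lies 36 bases before the start in Junb and is not in the Fos run. The share of all 32851 promoter runs in the table that hold each is 20.8% for TGACG, 13.6% for TATAAA and 37.4% for CCAAT. Of 20 other immediate early and serum-response genes listed for comparison, 16 are in the table, and of those 16 TGACG is found in 10, CCAAT in 7 and TATAAA in 2. A gene was counted if any of its runs holds the string. These counts are thus per gene and the shares per run, and the 2 are not on the same footing. These 3 strings were chosen after the sequences were seen, and TGACG is contained in the full element.

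Neither run holds a CArG box, the full cAMP response element TGACGTCA, an AP-1 site (TGACTCA or TGAGTCA), the EGR site GCGTGGGCG or the E-box CACGTG. Among all runs these occur in 1.63%, 1.79%, 5.20%, 0.612% and 7.15%. Among the same 16 genes, counted per gene as above, a CArG box is found in 3, Egr2, Zfp36 and Srf, and TGACGTCA in 3, Dusp1, Btg2 and Maff. An AP-1 site is found in 0 of the 16, the EGR site in 1 (Maff) and CACGTG in 3 (Egr2, Dusp1 and Maff). The runs have a GC content of 65.3% for Junb and 58.7% for Fos, against a median of 52.7% over all promoter runs. A missing string says only that these letters are not within these 300 bases.

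In the Ier2 window the peaks gathered near the middle. From left to right their scores are 23.13, 7.83, 6.68, 6.52, 5.13 and 6.03. The leftmost, with the highest score, spans chr8:87174068-87174533 and its centre lies 10.7 kb before the window's midpoint. It ranks 170 in the list and scores above 96.7% of it. The other 5 lie between the ranks of 1218 and 2622, so the window holds 1 high peak and 5 of middling score.

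The peak nearest to the midpoint of the Ier2 window spans chr8:87184859-87185481, with its centre 0.17 kb from it. It is 623 bp wide, wider than 94.6% of the list, and scores 6.68. The next peak to the right begins after a gap of 632 bp, at chr8:87186114-87186868. At 755 bp it is the widest of the 13, wider than 97.6% of the list, and it scores 6.52. Both are broad peaks of moderate score. A narrower peak of 272 bp at chr8:87187889-87188160 scores 5.13, the lowest of the window, and the 403 bp peak at chr8:87179416-87179818 scores 7.83.

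Joined at under 12500 bp apart, these 5 peaks form 1 stretch of 14.1 kb, chr8:87174068-87188160, of which peaks cover 17.9%. Of the 4243 stretches and single peaks on the 19 autosomes, 17 (0.401%) have at least 5 peaks, and 5 of those 17 are on chromosome 8. The remaining peak of the window stands alone at chr8:87211353-87211664, 23192 bp further right, with a score of 6.03. Outside the window, no peak is listed for 108.8 kb to the left, where the next one scores 2.79. The next to the right lies 11.9 kb beyond the window and scores 4.95.

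In the Junb window 1 peak stands far above the rest. From left to right the scores are 2.25, 107.73, 2.01, 2.99, 2.67, 5.79 and 5.02. The peak scoring 107.73 spans chr8:87471031-87471497, with its centre 28.74 kb before the window's midpoint. It ranks 29 in the whole list and 2 among the 443 peaks of chromosome 8. The next highest peak of the window, scoring 5.79, ranks 2233 in the list.

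That peak is one of 34 in the list that score at least 100, or 0.655% of it. It is 467 bp wide, and 11 of the 34 are narrower. Their median width is 520 bp. A narrow peak of 225 bp at chr8:87461110-87461334, scoring 2.25, lies 9696 bp to its left, and the next peak to its right is 28509 bp away. The strongest peak of the window therefore stands apart from the group near the midpoint.

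Around the midpoint of the Junb window lie 4 weaker peaks that form a stretch of 10.3 kb, chr8:87500007-87510332, covered to 17.4%. The nearest to the midpoint, chr8:87500007-87500420, has its centre 0.21 kb from it and the lowest score of all 13, at 2.01, so that 1.58% of the list scores lower. The next, chr8:87502389-87502808, scores 2.99, and chr8:87509011-87509345 scores 2.67. The fourth, chr8:87509705-87510332, begins 359 bp after the third and scores 5.79 at a width of 628 bp. Of the autosomal stretches, 50 (1.18%) have at least 4 peaks, 11 of them on chromosome 8.

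The last peak of the Junb window, chr8:87548933-87549156, sits just inside its right edge with a score of 5.02. Its width of 224 bp is the narrowest in the list, a width that 11.7% of all peaks share. Just outside the edge, 0.6 kb beyond it, the next peak scores 4.71. With 1 more peak outside they form a stretch of 3 peaks, so this group is divided by the edge of the window. To the left the next peak lies 22.8 kb outside the window and scores 5.60.

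**Figure D1:**
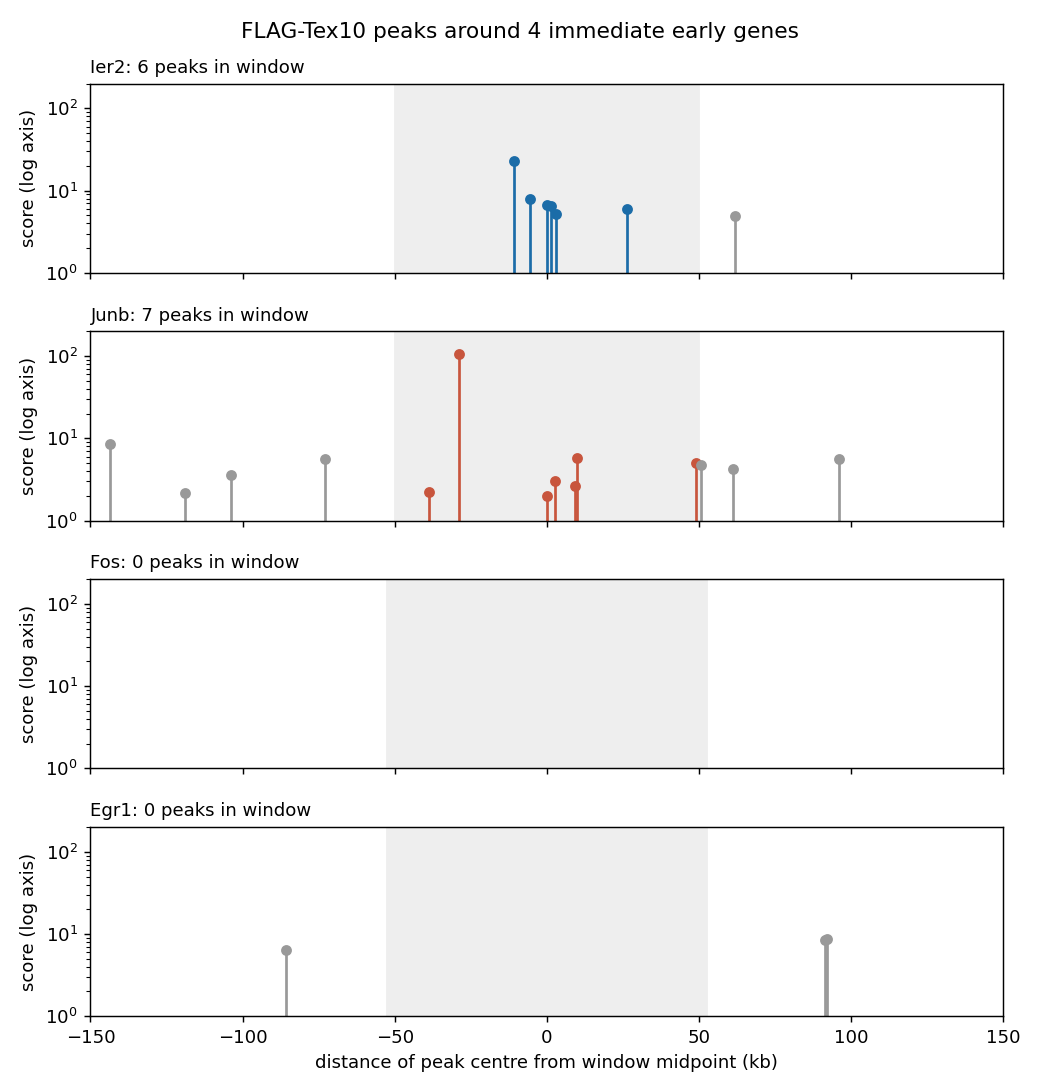
Score (log axis) of each peak against the distance of its centre from the window's midpoint in kb, 1 panel per gene. Grey shading marks the window, coloured points are peaks inside it and grey points are peaks outside it. The Junb panel has 1 peak at 107.73, the Ier2 panel a group of 5 near the middle, and the Fos panel no peak within 150 kb on either side.

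The Ier2 and Junb windows hold nearly the same number of peaks, at different scores. The median score is 6.60 over the 6 peaks of Ier2 and 2.99 over the 7 of Junb, or 2.83 over the 6 without the highest. Of the Ier2 peaks 5 of 6 score above the median of the list, and of the Junb peaks 2 of 7. By construction 50% of the list does. In the Junb window 4 of 7 peaks score below 3, against 0 of 6 in the Ier2 window and 11.2% of the list. On chromosome 8 as a whole 10.8% score below 3, close to the 11.1% of the other autosomes. Of the 13 peaks 2 score at least 10, 1 in each window, a share near the 14.5% of the list that scores that high.

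**Figure D2:**
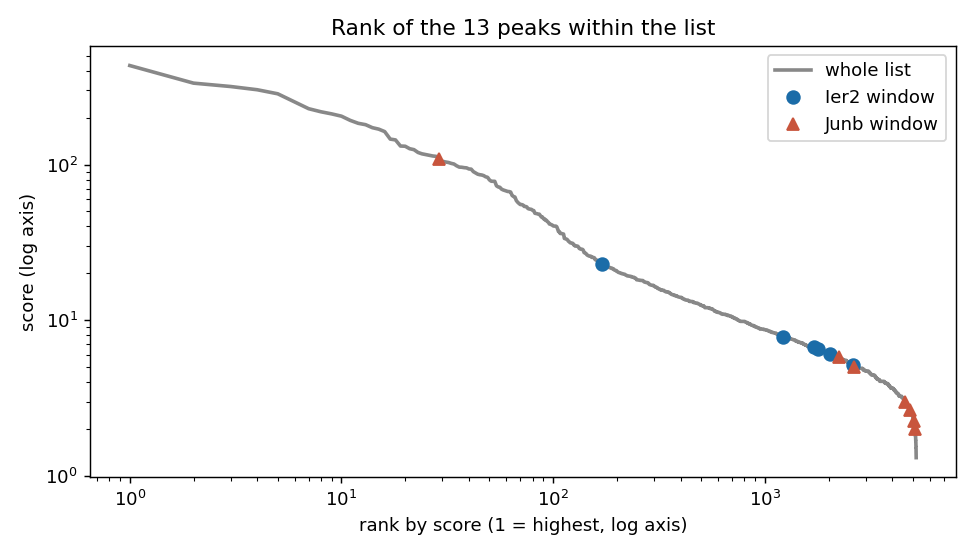
Score against rank in the list, both on log axes, with rank 1 the highest. The grey line is the whole list, circles are the 6 peaks of the Ier2 window and triangles the 7 of the Junb window. The Junb peaks lie at both ends, at rank 29 and from rank 4619 to 5107, with 2 between.

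Of the 13 peaks 9 are wider than the list's median width of 314 bp, and 4 are narrower. Of the Ier2 peaks 4 of 6 are wider than that, and of the Junb peaks 5 of 7, against 49.8% of the list. The median width is 434 bp for Ier2 and 414 bp for Junb. The 4 Junb peaks that score below 3 are 225, 414, 420 and 335 bp wide. The 579 peaks of the list that score below 3 have a median width of 284 bp. Of these 579, 29.0% are at least 335 bp wide, as are 3 of the 4 Junb peaks. That limit was taken from the Junb peaks themselves.

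**Figure D3:**
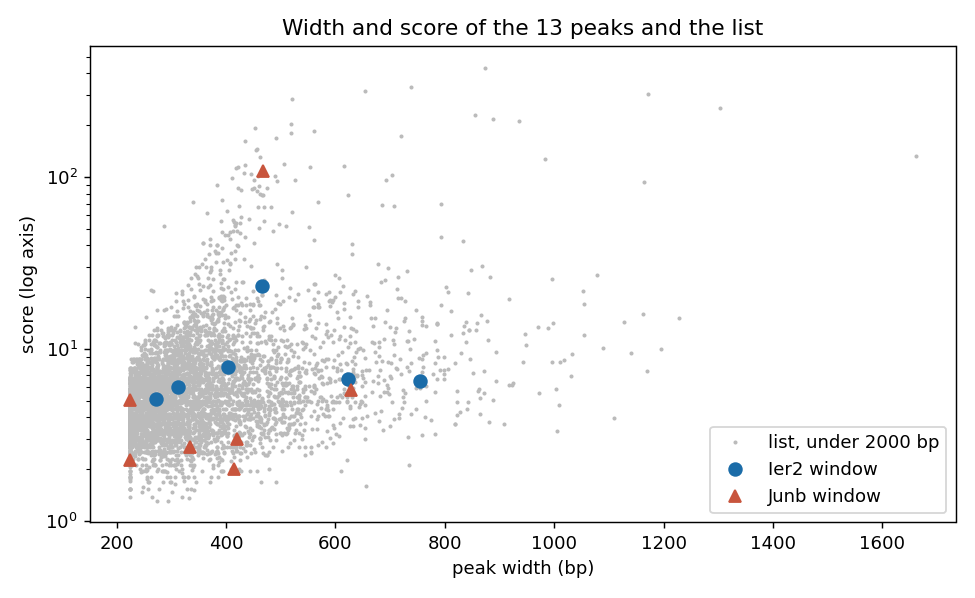
Score (log axis) against width in bp for the peaks of the list under 2000 bp (grey), the Ier2 window (circles) and the Junb window (triangles). Among the 13 peaks the widest, of 755, 628 and 623 bp, score between 5.79 and 6.68, while those scoring 23.13 and 107.73 are 466 and 467 bp wide.

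Counted over all listed peaks, few bins of the same length are as full as these windows. Of 24712 bins of 100 kb on the autosomes, 0.0931% hold at least 6 peaks, as the Ier2 window does, and 0.0445% hold at least 7, as the Junb window does. On chromosome 8 alone, which carries more peaks per length, the shares are 0.456% (6 of 1317 bins) and 0.304% (4 bins). The share for Junb depends on the setting. With bins of 50 kb and windows of 25 kb on either side of the midpoint it was 0.146%, for at least 4 peaks. That narrower Junb window holds 4 peaks and leaves out the one scoring 107.73. With only peaks above the list's median score, of which the Junb window holds 2, the share was 1.47% (363 bins). For Ier2 the same settings gave 0.0546% and 0.0283%, each for at least 5 peaks. The mean is 0.208 peaks per autosomal bin and 0.338 per bin of chromosome 8. The bins also cover the windows, so the members are counted in these shares. A bin over the right part of the Junb window is among those with at least 7 peaks. The windows were placed with the peaks known and the bins on a fixed grid, so these shares are a background and not a test.

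Listed peaks also lie between the Ier2 and Junb windows. The midpoints of these windows lie 315 kb apart, and the 215 kb between the windows hold 5 more peaks with scores from 2.19 to 8.59. The stretch of chromosome from the start of the Ier2 window to the end of the Junb window, 415 kb in all, holds 18 peaks. That is 4.34 per 100 kb against 0.336 for chromosome 8, or 4.06% of its peaks in 0.315% of its length. Of these 18 peaks 13 are the members themselves, and the ends of the region are window edges. This density therefore rests mostly on selected peaks and is a description. Between the windows the density is 2.33 per 100 kb, from 5 peaks, 2 of them of the narrowest width in the list. This is above the chromosome's mean, but 1049 of the 1317 bins of 100 kb behind that mean hold 0 peaks. Of the other bins, 175 hold 1 peak, 54 hold 2, 20 hold 3 and the rest hold at least 4.

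In the RefSeq gene table (GRCm38.p6), 17 protein-coding genes lie between Ier2 and Junb. They include Nfix, a nuclear factor I gene, Calr, which encodes the chaperone calreticulin, and Klf1, a regulator of red cell genes. The next protein-coding genes to Ier2 are Cacna1a, a calcium channel gene, and Nacc1. Those next to Junb are Prdx2, which encodes a peroxiredoxin, and Hook2. Gene positions on mm9 were not used here, so the peaks are not assigned to promoters, to gene bodies or to any of these genes, and the midpoint of a window is not a start site.

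The Fos window holds 0 peaks, and the nearest listed peaks are far away. The last before it, chr12:86039516-86039840, lies 725.2 kb to the left of the window and scores 9.50. The first after it, chr12:87530701-87530924, lies 660.7 kb to the right and scores 5.65. The interval without a peak is 1490.9 kb long. It ranks 411 among the 5101 intervals between neighbouring peaks of the autosomes and 21 among the 194 of chromosome 12, and the median interval is 140.0 kb. Intervals at least this long make up 50.7% of the length of the autosomes, so a position in one is common. In the gene table the protein-coding genes next to Fos are Tmed10, Jdp2 and, beyond Jdp2, Batf, the last 2 of which also encode leucine zipper proteins of the AP-1 group.

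The Egr1 window also holds 0 peaks, but peaks lie closer. The last before it, chr18:34936566-34937164, lies 32.8 kb outside the window and is 599 bp wide with a score of 6.46. To the right a pair of peaks begins 38.7 kb outside it, chr18:35113728-35114152 with a score of 8.48 and chr18:35114406-35114676 with a score of 8.79. All 3 score above the median of the list. The interval without a peak is 176.6 kb, and 44.6% of the autosomal intervals are longer. Intervals at least this long make up 90.4% of the length of the autosomes. The protein-coding genes next to Egr1 in the gene table are Reep2 and Etf1, which encodes a translation release factor.

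An empty window is the usual case in this list. Of the autosomal bins of 100 kb, 85.4% hold no peak, and so do 88.1% on chromosome 12 and 88.4% on chromosome 18. The windows of Fos and Egr1 are 105 kb long, slightly longer than these bins. A count of 0 here says that no region passed the authors' threshold, which is not stated, and not that Tex10 was absent.

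**Figure D4:**
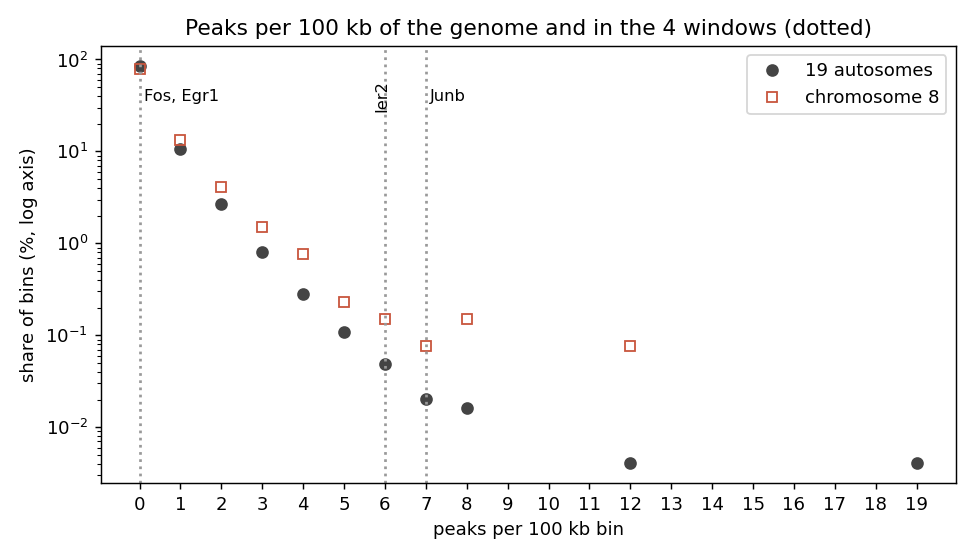
Share of bins of 100 kb (%, log axis) by the number of peaks they hold, for the 19 autosomes (filled circles) and chromosome 8 (open squares), with dotted lines at the counts of the 4 windows. Most bins hold 0 peaks, as the Fos and Egr1 windows do, and the counts of 6 and 7 of the Ier2 and Junb windows lie in the thin tail.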

How the data were processed

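The authors deposited 1 peak list for the FLAG library, with a chromosome, start, end, name and score for each peak. Per the labels, reads were 100 bp and single-end. The submitters' processing notes name the build mm9 and 4 tools without their roles: bedtools 2.18.1, SAMtools 0.1.19, Bowtie 1.0.0 and FastQC 0.10.1. The peak caller, its control and the scale of the score are not given in the sources used here. Peak names run from 1 to 5189 with 0 missing.

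Starts were converted to 1-based positions. The members, windows and gene lists were chosen with earlier results of these data known. By rule the text describes the highest-scoring and the most central peak of each window. The other peaks of the windows, and those nearest outside, were added after their values were seen. Bins of 100 kb used mm9 chromosome lengths (GenomeInfoDb 1.38.1), with assembly gaps left in. A peak was counted in each bin it overlapped. Neighbouring peaks with a gap under 12500 bp formed a stretch. Promoter runs and neighbouring genes came from RefSeq (GRCm38.p6), and no coordinate was converted. Python 3.11.15, numpy 2.4.6 and pandas 2.3.3 were used. Counting was tested on 20 simulated lists, and the planted peaks were recovered in 20 of them. Other simulated peaks were cleared from in and around the windows first, so peaks just outside or across an edge were not tried. Depth is unknown and no test was made.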

Additional observations from a re-analysis of the deposited data

How the results depend on the processing

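The total of 13 peaks was 13 with peaks wholly inside the windows, 12 with peaks under 500 bp apart joined and 9 with windows of 25 kb on either side of the midpoint. It was 7 with peaks scoring above the list's median (5 around Ier2, 2 around Junb), 2 with scores of at least 10 and 21 with windows of 100 kb on either side, a setting chosen after seeing the data. The Fos count was 0 in these settings, and the Egr1 count was 0 except in the widest, where it was 3. Stretches of at least 3 peaks that reach into the windows numbered 3, against 1 when joined under 5 kb and 3 under 25 kb. The share of bins as full as the Ier2 window was 0.0931%. It was 0.0546% with bins of 50 kb, for the 5 peaks left in a window of 25 kb on either side. It was 0.085% with shifted bins, 0.456% on chromosome 8, 0.0283% with peaks above the list's median and 0.0953% from 3 Mb onward (chosen after). For the Junb window it was 0.0445%, and in the same order 0.146%, 0.0405%, 0.304%, 1.47% and 0.0456%. Fewer peaks remain in the Junb window above the median, 2 of 7, which sets the 1.47%. With 25 kb on either side 4 remain, which sets the 0.146%. No paired analysis was possible because there are no replicate libraries to pair. The list holds no read counts, so what depth limits cannot be measured.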

Other observations

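Of the 13 peaks around Ier2 and Junb, 10 (76.9%) belong to stretches of at least 3 peaks, where 11% of the autosomal peaks and 20.8% of those on chromosome 8 do. The exceptions are the lone peak to the right of the Ier2 group and the pair with the peak scoring 107.73. The windows were chosen with the peaks known, so this share is a description.

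The peak scoring 107.73 lies 28.74 kb from the midpoint of the Junb window, with 28509 bp free of peaks between it and the group at the midpoint. The list has 34 peaks that score at least 100, of which 2 are on chromosome 8 and 29 on the autosomes. No IgG or input value per peak was used here, so its height was not set against a control.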
